A study of Homo sapiens with 8 samples.

Results

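DNA methylation was described around the starts of 9 genes of the pluripotency network (POU5F1, NANOG, SOX2, LIN28A, ZFP42, DPPA4, DPPA3, SALL4 and PRDM14) in HUES64, an established human embryonic stem cell line. Members were the CpGs listed within 5 kb of each gene's hg19 start, 587 of the 3209182 CpGs listed in any library, and the rule uses positions alone. All samples carried the genotype DNMT1 knockout and formed a time course from day 0 to day 7 of the withdrawal of DNMT1*; how DNMT1* was supplied and withdrawn is not given in the sources used here. Each of the 8 days had 1 RRBS library (reduced representation bisulfite sequencing, in which DNA is cut with MspI and CpGs close to the cut ends are read). No replicate, no parallel library without withdrawal and no other clone was analysed here, so elapsed culture time and the withdrawal cannot be told apart.

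DNMT1 copies methylation onto the new strand after replication, and without it methylated CpGs are diluted at each division. POU5F1, NANOG and SOX2 encode the core transcription factors of pluripotent cells. LIN28A encodes an RNA-binding protein that blocks let-7 maturation, ZFP42 (REX1) a zinc finger protein used as a pluripotency marker, DPPA3 (STELLA) and DPPA4 proteins of early embryo and germ cells, SALL4 a zinc finger transcription factor, and PRDM14 a regulator of the germ line and of pluripotency. RNA was not measured in the libraries used here, so the values below are methylation alone.

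The libraries of days 0, 1, 2, 6 and 7 had medians of 21 to 44 reads per listed CpG, and those of days 3, 4 and 5 a median of 4. Values of days 3 to 5 therefore rest on few reads, and the part of this depth gap in the day-to-day shape was not tested. Levels are means over CpGs read in all 8 libraries, each CpG weighted equally. Intervals are 95% Wilson intervals on pooled reads and cover counting error only. Pooled reads are summed over CpGs, so a read that covers several CpGs is counted at each of them. Such counts are not independent, and intervals and limits on them are too narrow where reads are shared. Reads carry no molecular identifiers. Positions are in bp from the start, negative upstream and positive downstream in the direction of transcription.

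Coverage differed between the genes. PRDM14 had 147 listed CpGs (104 in all 8 libraries), SALL4 111 (83), ZFP42 80 (62), SOX2 74 (55), LIN28A 67 (60), DPPA3 50 (34), DPPA4 33 (29), POU5F1 20 (13) and NANOG 5 (5). Leaving NANOG aside, the CpGs read in all 8 libraries held from 326 reads (POU5F1, day 1) to 6139 reads (PRDM14, day 0) per deep library, and on days 3 to 5 from 58 reads (POU5F1) to 681 reads (PRDM14). The NANOG CpGs held 69 to 162 reads in the deep libraries and 11 to 31 on days 3 to 5. NANOG had too few CpGs for a trend at either scale, with no listed CpG within 1 kb of its start. POU5F1 had CpGs only between positions -160 and +678, so no flank of it was read. Processed pseudogenes of POU5F1, NANOG and DPPA3 exist elsewhere in the genome, and reads shared with such copies were not separated here.

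The starts of ZFP42 and DPPA3 were methylated on day 0 and that of SOX2 was not, and the promoters of these 3 genes are shown in sequence. They are RefSeq sequences of GRCh38.p14, from 250 bases before to 50 after the RefSeq start, each on the + strand: ZFP42 at chr4:187995521-187995820, DPPA3 at chr12:7711183-7711482 and SOX2 at chr3:181711675-181711974. Capitals mark the CpGs read here, placed by matching the spacing of the listed hg19 CpGs to the CGs of the sequence (19 of 19, 5 of 5 and 6 of 6 matched). By this matching the hg19 start lies 60 bp downstream of the RefSeq start in DPPA3, past the last printed base. In ZFP42 the 2 starts coincide, and in SOX2 they lie 1 bp apart. The marked DPPA3 CpGs, at -76 to -13 from the hg19 start, thus have other distances from the RefSeq start.
ZFP42: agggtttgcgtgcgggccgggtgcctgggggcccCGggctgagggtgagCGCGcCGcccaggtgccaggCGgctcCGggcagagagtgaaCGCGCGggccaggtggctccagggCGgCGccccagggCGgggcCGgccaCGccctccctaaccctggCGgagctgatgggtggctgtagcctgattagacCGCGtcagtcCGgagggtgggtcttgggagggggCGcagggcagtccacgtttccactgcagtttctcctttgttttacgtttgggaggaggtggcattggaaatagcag
DPPA3: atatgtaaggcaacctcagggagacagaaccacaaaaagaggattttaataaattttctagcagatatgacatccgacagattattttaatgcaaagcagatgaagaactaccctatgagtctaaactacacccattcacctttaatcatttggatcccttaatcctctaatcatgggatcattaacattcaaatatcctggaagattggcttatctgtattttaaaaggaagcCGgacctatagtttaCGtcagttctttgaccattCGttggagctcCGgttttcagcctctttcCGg
SOX2: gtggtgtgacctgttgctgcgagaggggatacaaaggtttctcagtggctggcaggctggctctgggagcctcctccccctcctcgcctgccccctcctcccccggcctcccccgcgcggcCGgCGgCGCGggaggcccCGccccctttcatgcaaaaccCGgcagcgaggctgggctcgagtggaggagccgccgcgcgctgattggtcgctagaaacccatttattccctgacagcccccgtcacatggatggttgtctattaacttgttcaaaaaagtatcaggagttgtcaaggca

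The ZFP42 sequence holds 24 CGs and the SOX2 sequence 20, against a median of 14 over the 35116 promoters of the table, and the DPPA3 sequence holds 6. The motif CCGG, cut by MspI, occurs 5 times in the ZFP42 sequence, 3 times in each of the other two, and at least once in 63.1% of all the promoters. In the ZFP42 promoter 895 of 970 reads were methylated on day 0 (92.3%, interval 90.4% to 93.8%) and 156 of 1075 on day 7 (14.5%, 12.5% to 16.7%). Single CpGs there ranged from 82.1% to 100% on day 0 and from 6.67% to 32.4% on day 7. In the DPPA3 promoter 442 of 513 reads were methylated on day 0 (86.2%, 82.9% to 88.9%) and 69 of 501 on day 7 (13.8%, 11.03% to 17.1%). None of the 200 day 0 reads summed over the marked SOX2 CpGs was methylated, and none of the 218 day 7 reads. Were these counts independent, they would leave room for a share up to 1.5% and 1.38%. The CpGs lie between -128 and -89 and can share reads, with 24 to 44 reads at each on day 0, so the room is larger. The other 6 libraries also held no methylated read of them. ZFP42 and SOX2 thus had similar numbers of CGs near the start and opposite levels on day 0.

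**Figure D1:**
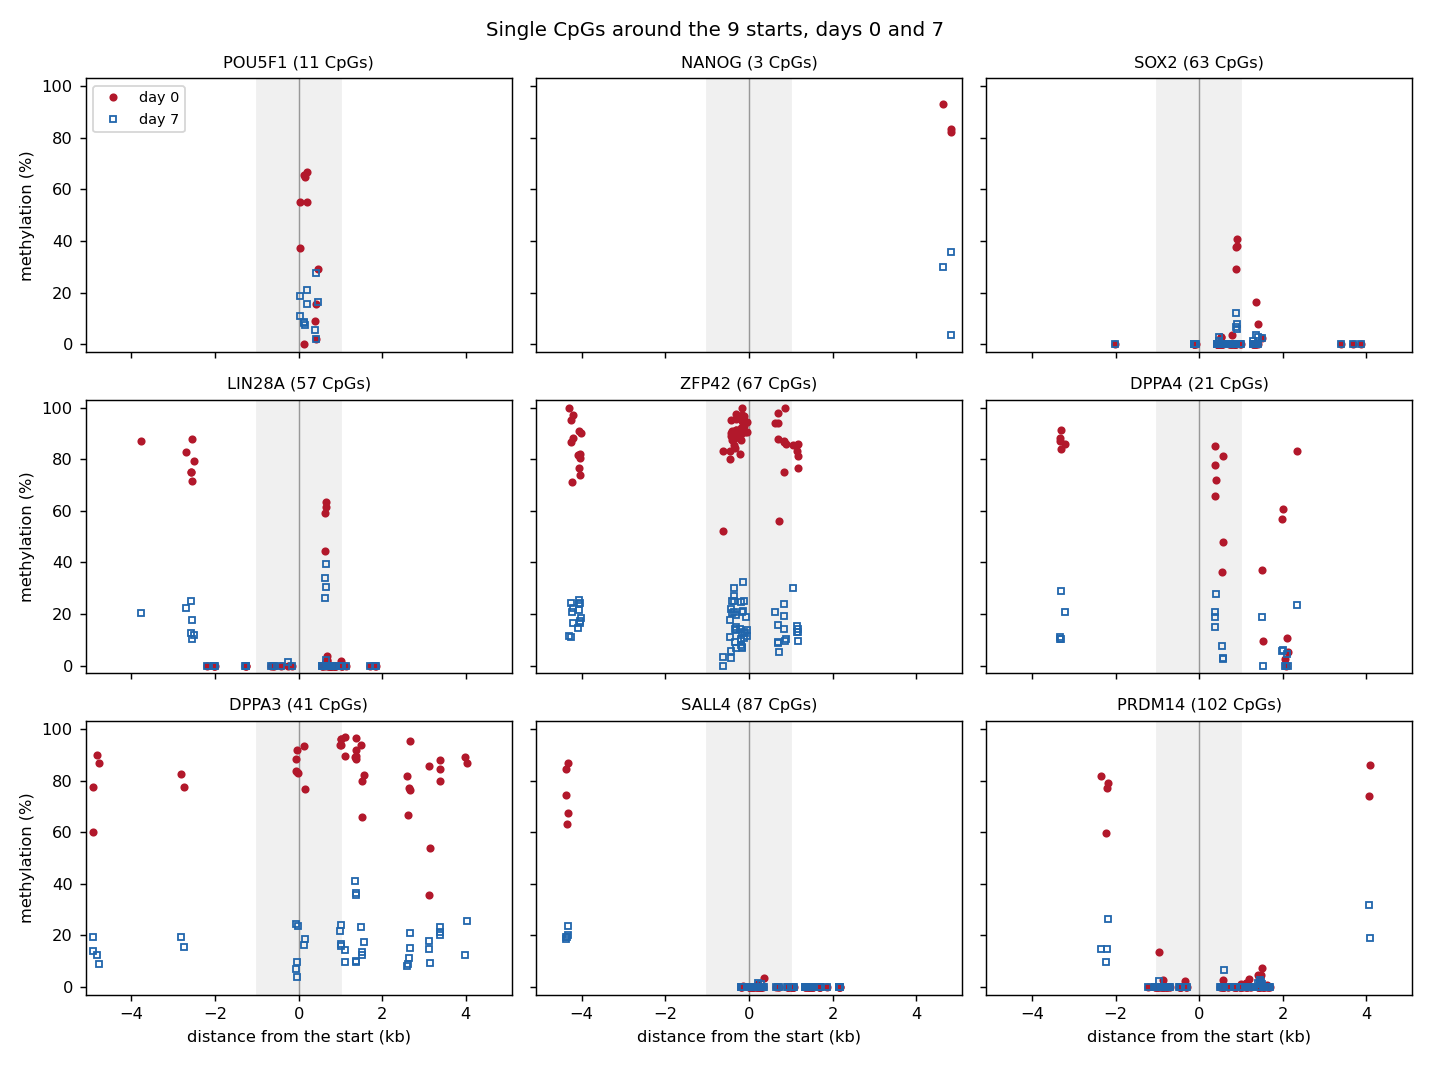
Methylation of single CpGs (y axis, percent of reads) against distance from the gene start in kb (x axis, downstream positive) for the 9 genes; filled red circles are day 0, open blue squares day 7, the grey band the 1 kb either side of the start, and only CpGs with 10 or more reads in each of days 0, 1, 2, 6 and 7 are drawn. The CpGs drawn for ZFP42, listed only between -4298 and +1293 bp, and those for DPPA3 were methylated on day 0. SALL4, PRDM14, SOX2 and LIN28A had a low stretch at the start. NANOG had 3 CpGs drawn, all far downstream.

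ZFP42 and DPPA3 lost most of their methylation. From day 0 to day 7 the ZFP42 window stood at 86.9%, 84.7%, 76.9%, 56.6%, 47.5%, 27.8%, 21.6% and 16.2%. The DPPA3 window stood at 83.5%, 79.2%, 70.6%, 54.8%, 36.3%, 21.6%, 18.97% and 16.3% in the same libraries. Both fell at each of the 7 daily steps, and so did the autosomal mean. The slope was -11.5 ± 0.838 (SE) points per day for ZFP42 and -11.2 ± 0.986 for DPPA3, and in an exact two-sided permutation of the 8 days each had p = 5e-05, the smallest value that the 40320 orders can give. The autosomal mean over 2405476 CpGs went from 54.6% to 11.4% with the same p.

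DPPA4 was mixed along its window. Its window mean went through 50.7%, 44.1%, 40.9%, 31.6%, 24.0%, 11.6%, 12.9% and 8.32% from day 0 to day 7, lower at 6 of 7 steps, with a slope of -6.53 ± 0.510 points per day (exact permutation p = 9.92e-05). The 5 CpGs more than 1 kb upstream stood at 87.3% on day 0 and 16.4% on day 7, the 11 within 1 kb at 64.1% and 8.65%, and the 13 further downstream at 25.4% and 4.95%. The downstream CpGs included a run of 4 between positions +2050 and +2113 with 10 methylated of 252 reads on day 0 (3.97%). The 4 CpGs within 500 bp of the start, the nearest of them at +377, stood at 75.1% on day 0 and 20.5% on day 7. None of the 5 CGs in the RefSeq promoter sequence of DPPA4 was listed, so that promoter itself was not measured.

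**Figure D2:**
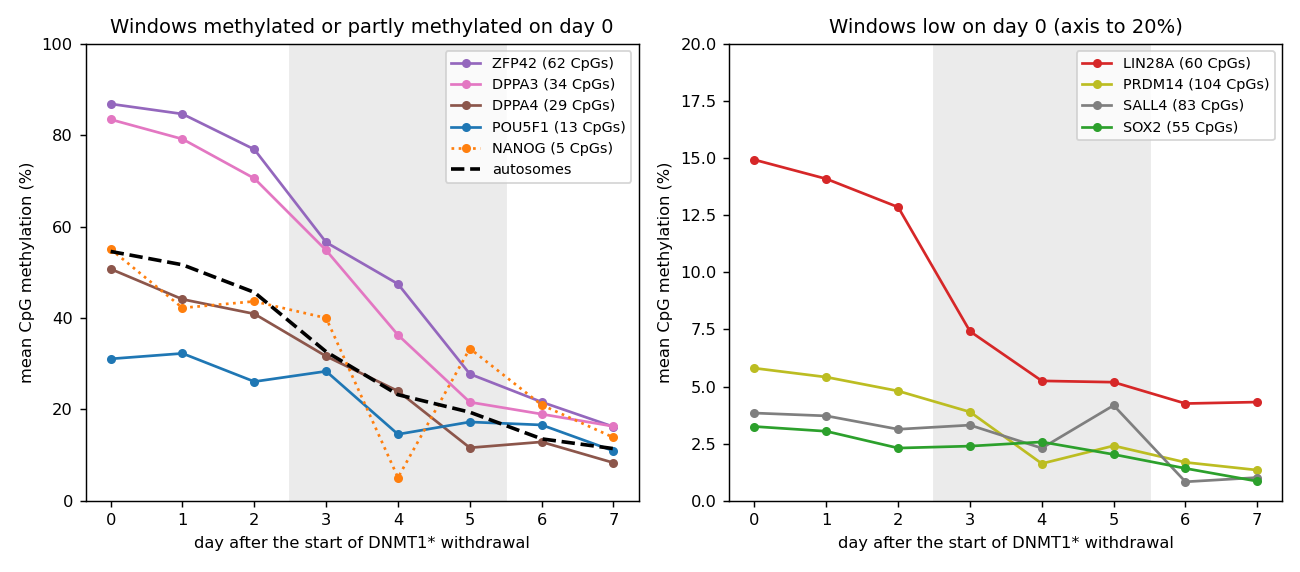
Mean methylation (y axis, percent) by day of the course (x axis) for the 10-kb window of each gene over CpGs read in all 8 libraries, 1 library per day; the left panel has an axis to 100% and the autosomal mean as a dashed line, the right panel an axis to 20%, and the grey band marks the shallow days 3 to 5. ZFP42 and DPPA3 fell from 86.9% and 83.5% to 16.2% and 16.3%, and the dotted NANOG line rests on 5 CpGs.

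POU5F1 started partly methylated. Its 13 CpGs, all within 1 kb of the start, averaged 31.1%, 32.3%, 26.1%, 28.4%, 14.6%, 17.3%, 16.6% and 10.9% from day 0 to day 7, lower at 4 of 7 steps. The slope was -3.09 ± 0.538 points per day (exact permutation p = 0.00243), and over the 4 CpGs that each library read at least 5 times it was -1.42 (exact permutation p = 0.126). In the 5 deep libraries alone, over CpGs of 10 or more reads, it was -3.58 (exact permutation p = 0.0167). A single mean describes this gene poorly, because neighbouring CpGs started at different levels and went different ways. The nearest well-read CpG, at position +31, stood at 37.1% on day 0 (35 reads) and 11.1% on day 7 (27 reads).

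The 4 POU5F1 CpGs from +134 to +200 were methylated in 132 of 211 reads on day 0 (62.6%, interval 55.9% to 68.8%) and in 29 of 226 on day 7 (12.8%, 9.08% to 17.8%). The 4 CpGs from +389 to +452 were methylated in 54 of 414 reads on day 0 (13.04%, 10.1% to 16.6%) and in 46 of 377 on day 7 (12.2%, 9.27% to 15.9%), so those intervals overlap. Between these days that stretch stood at 15.1%, 19.1%, 10.5%, 23.5%, 17.4% and 16.1%. Within it the CpG at +402 had 17 methylated of 109 reads on day 0 (15.6%, 9.97% to 23.6%), 33 of 98 on day 6 (33.7%, 25.1% to 43.5%) and 29 of 105 on day 7 (27.6%, 19.97% to 36.8%); the intervals of days 0 and 6 do not overlap, and those of days 0 and 7 do. The CpG at +128, next to the methylated stretch, had 0 of 54 methylated reads on day 0, 6 of 40 on day 2 and 3 of 37 on day 7. These stretches and CpGs, and those named below for LIN28A, SOX2, DPPA4, SALL4 and PRDM14 as single sites, were chosen after their values were seen, so they are given without a test.

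NANOG gave values and no trend. Its 2 upstream CpGs, at -1696 and -1398, averaged 8.33% on day 0 (2 methylated of 28 reads) and 0% on day 7 (0 of 18). Days 1 and 2 gave 0 of 15 and 0 of 27 reads, and day 5 gave 1 of 7, too few to show a loss. Its 3 downstream CpGs, at +4644, +4822 and +4838, averaged 86.3%, 70.4%, 72.8%, 66.7%, 8.47%, 50%, 34.98% and 23.1% from day 0 to day 7. The jump between days 4 and 5 rests on the shallow libraries, in which all 5 CpGs together held 11 to 31 reads. The NANOG start itself was not measured.

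LIN28A combined methylated CpGs in the outer part of its upstream flank with an unmethylated start. Its window averaged 14.9%, 14.1%, 12.9%, 7.42%, 5.25%, 5.19%, 4.26% and 4.32% from day 0 to day 7 (slope -1.77 ± 0.269 points per day, exact permutation p = 0.000149); over the 10 CpGs that each library read at least 5 times the slope was -0.966. The 13 CpGs more than 1 kb upstream went from 50.5% to 9.65%, while the 8 more than 1 kb downstream stood at 0.245% and 0%. The upstream mean joins unlike CpGs. The 6 in the 1 kb centred at -2768 had 248 methylated of 309 reads on day 0 and 51 of 328 on day 7. The 5 in the 1 kb centred at -1768 had 0 of 230 and 0 of 240. A run of 29 CpGs from +664 to +1857 had 6 methylated of 2141 reads on day 0 and 1 of 1873 on day 7. Of the upstream CpGs at 80% or more in the pooled reads of days 0 and 1, those highest and lowest on day 6 lay at -2515 and -2562; the first went from 79.3% to 12% by day 7 and the second from 87.6% to 17.8%.

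Inside the LIN28A start zone, 4 CpGs from +623 to +650 formed a methylated patch beside the low run. They were methylated in 99 of 174 reads on day 0 (56.9%, interval 49.5% to 64.0%), 49.5% on day 1, 52.5% on day 2, 27.5% on day 6 (53 of 193) and 32.6% on day 7 (56 of 172, 26.0% to 39.9%). Days 3, 4 and 5 gave 4 of 16, 9 of 26 and 0 of 20 reads. The stretch thus kept 57.2% of its day 0 level. Of the 667418 autosomal CpGs that started between 20% and 80%, 1.30% kept as large a share, with a median of 18.97% and a 95th percentile of 44.1%; the stretch pools 4 neighbouring CpGs and was picked for its level, so this percentage is a description. Between them the CpG at +635 had 0 methylated of 38 reads on day 0 and 0 of 37 on day 7.

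**Figure D3:**
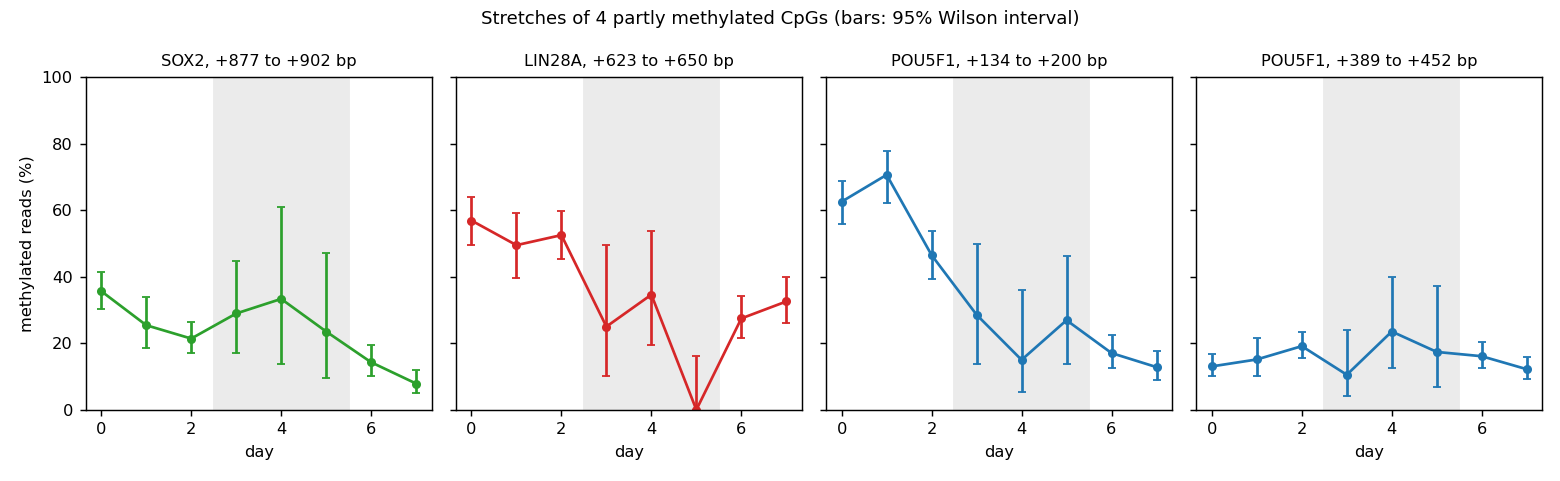
Methylated reads (y axis, percent, pooled over 4 neighbouring CpGs) by day (x axis) in 4 short stretches of SOX2, LIN28A and POU5F1, with 95% Wilson intervals as bars and positions from the start in the panel titles; the grey band marks the shallow days 3 to 5. LIN28A +623 to +650 kept 57.2% of its day 0 level, and POU5F1 +389 to +452 stood at 13.04% on day 0 and 12.2% on day 7.

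SOX2 was low over its start, with partly methylated CpGs downstream. Its window averaged 3.25% on day 0, 3.04%, 2.31%, 2.39%, 2.58%, 2.03%, 1.42% and 0.855% on day 7 (slope -0.304 ± 0.0471 points per day, exact permutation p = 0.000694). Pooled reads gave a slope of -0.483 (exact permutation p = 0.0345), and the 8 CpGs that each library read at least 5 times gave -0.101 (p = 0.424), so the call was lost there. The 5 deep libraries alone, over CpGs of 10 or more reads, gave -0.290 (exact permutation p = 0.00833). No CpG was listed between -2009 and -128 or between -89 and +415. Across these gaps, a run of 42 CpGs from -2009 to +874 had 3 methylated of 1706 reads on day 0 and 2 of 1755 on day 7. Directly after it, the 4 CpGs from +877 to +902 were methylated in 97 of 272 reads on day 0 (35.7%, interval 30.2% to 41.5%) and in 19 of 241 on day 7 (7.88%, 5.11% to 11.98%). The CpG at +888, between them, had 0 methylated of 62 reads on day 0 and 0 of 53 on day 7. That patch carried 97 of the 124 methylated day 0 reads of the 55 SOX2 CpGs read in all 8 libraries. Further downstream, 2 CpGs that were not read in every library, at +1224 and +1237, had 12 of 19 and 14 of 21 methylated reads on day 0, and 0 of 6 and 1 of 7 on day 7.

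SALL4 and PRDM14 held the unmethylated runs with the most CpGs of the 9 genes. In SALL4 a run of 82 CpGs from -200 to +2171 had 5 methylated of 5787 reads on day 0 (0.0864%) and 2 of 4481 on day 7 (0.0446%). In PRDM14 a run of 96 CpGs from -1216 to +1681 had 43 of 5692 reads on day 0 (0.755%) and 10 of 4778 on day 7 (0.209%), with the highest CpG of the run at -962, at 13.6% of 132 reads on day 0 and 2.17% of 138 on day 7. Their flanks were methylated only in part. The 4 SALL4 CpGs upstream of the run averaged 78.2% on day 0 and 20.4% on day 7. The 37 SALL4 CpGs more than 1 kb downstream had 0 methylated of 2057 reads on day 0. The 4 PRDM14 CpGs from -2355 to -2171 had 190 methylated of 268 reads on day 0 and 34 of 230 on day 7. The 42 PRDM14 CpGs more than 1 kb downstream averaged 6.70% on day 0 and 1.72% on day 7. The PRDM14 CpG at -2355 stood at 81.8% and 14.9%, and that at +4085 at 85.9% and 19.1%. Over the whole window PRDM14 went from 5.81% to 1.34% (slope -0.707 ± 0.0975 points per day, exact permutation p = 0.000694; -0.307 over the 26 CpGs that each library read at least 5 times) and SALL4 from 3.84% to 1.02% (slope -0.382 ± 0.146, p = 0.0457). The SALL4 call was lost when any library other than that of day 5 was left out (exact permutation p from 0.0746 to 0.156) and with pooled reads (p = 0.467), and the slope was +0.110 over the 25 CpGs that each library read at least 5 times (p = 0.544). It was kept in the 5 deep libraries alone, over CpGs of 10 or more reads (slope -0.524, exact permutation p = 0.0167).

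The shallow libraries read methylation at the SALL4 start that the deep ones did not. At the 3 CpGs from +4 to +11 the libraries of days 0, 1, 2, 6 and 7 held 452, 162, 314, 261 and 202 reads, none of them methylated. Days 3, 4 and 5 gave 6 of 31, 3 of 18 and 6 of 26 methylated reads there. These are sums over the 3 CpGs, so a read that covers all 3 is counted at each. The CpG at +4 alone gave 2 of 6, 1 of 4 and 2 of 7 methylated reads on days 3, 4 and 5. Over the 76 SALL4 CpGs with no methylated read in any deep library, days 3, 4 and 5 gave 1.64%, 2.06% and 3.32% methylated reads. The same kind of CpG over the autosomes gave 0.151%, 0.125% and 0.147%. By gene, the 64 of PRDM14 gave 0%, 0% and 0.656%, the 47 of SOX2 0%, 0% and 0.472%, and the 30 of LIN28A 0.935%, 0.625% and 0.658%. Depth separates the days in which these reads appear from those in which they do not, and its part was not tested.

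A quasi-binomial regression of methylated reads on day, with p-values adjusted by Benjamini-Hochberg over all windows of the genome, called the 8 gene windows with enough CpGs as falling, and 98.1% of the 118625 autosomal 10-kb windows fell and 0.0523% rose in the same test. The count for the genes is therefore near the background. The median fitted change was -13.5 points for the 8 gene windows and -65.4 points for all windows. LIN28A, PRDM14, SOX2 and SALL4 started at 20% or less, and of grid windows that started at 20% or less, 78.7% fell. ZFP42 had a fitted change of -73.8 points (adjusted p = 1.18e-129) and DPPA3 of -71.5 (7.64e-103). DPPA4 changed by -48.7 points (7.85e-39) and POU5F1 by -17.3 (6.68e-07). LIN28A (-9.59 points), PRDM14 (-5.22), SOX2 (-3.10) and SALL4 (-1.88, adjusted p = 1.16e-06) changed least. Dispersions in this fit were moderated over all windows. Adjusted p-values this small therefore draw on the spread of other windows and not only on the 8 libraries of each gene. For SALL4 the adjusted p was 0.206 with limma on arcsine square-root levels, and in windows of 2 kb either side of the start the fitted change was 0.08 points with adjusted p = 0.542.

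In the 1 kb around each start, 4 of 8 windows fell (POU5F1, ZFP42, DPPA4 and DPPA3) and none rose, against 90.4% of 203871 autosomal 1-kb tiles that fell and 0.188% that rose. The starts of SOX2 (adjusted p = 0.575), LIN28A (0.0776), SALL4 (0.759) and PRDM14 (0.175) did not pass; all 4 began at 20% or less, and 36% of the 30483 tiles of that kind fell. With limma on arcsine square-root levels LIN28A passed as rising (adjusted p = 0.0180) and PRDM14 as falling (0.0147); by that test 20.3% of the tiles at 20% or less fell and 0.351% rose. In LIN28A 2 reads carry that call, 1 methylated of 244 on day 6 and 1 of 200 on day 7, with none on days 0 to 5. When the windows were widened to 1 kb either side, 7 of 8 fell, SALL4 (adjusted p = 0.679) being the exception; of the autosomal 2-kb tiles 93.8% fell, and of those at 20% or less 49.2%.

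Of the 32 tiles of the 1-kb grid inside the gene windows 21 fell, a share of 65.6% against the 90.4% of all tiles and the 36% of those that began at 20% or less. All 4 tiles of ZFP42, all 5 of DPPA3 and all 4 of DPPA4 fell. The largest and smallest fitted changes were -76.8 and -68.3 points in ZFP42, -78.2 and -60.1 in DPPA3, and -71.9 and -20.1 in DPPA4. LIN28A held 2 falling tiles of 5. Its largest change was -68.2 points in the tile centred at -2768, among its methylated upstream CpGs, and its smallest 0.01 at +1232. PRDM14 held 2 of 5, with -60.5 points at -1938 and -0.19 at +2062. SALL4 held 1 of 4, with -63.4 points at -4452 and -0.01 at +1548. SOX2 held 2 of 3, with -4.16 points at +788 and 0.73 at +3788, and POU5F1 1 of 2, with -19.3 points at -50 and -5.19 at +950. In SALL4, PRDM14 and LIN28A the largest change lay in the flank and not at the start.

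Whether the methylated genes lost methylation at another rate than the genome was tested on the slope of the natural log of window level over autosomal mean, in an exact two-sided permutation of the 8 days. ZFP42 lost 22.9% of its level per day, DPPA4 23.8% and DPPA3 23.5%, against 21.7% for the autosomes. In that exact permutation test the differences in log slope were -0.02 ± 0.0182 (SE) per day for ZFP42 (p = 0.457), -0.03 ± 0.0277 for DPPA4 (p = 0.363) and -0.02 ± 0.0183 for DPPA3 (p = 0.251), none past 0.05; 4 genes were compared and these p-values are unadjusted. POU5F1 lost 13.9% per day, a difference of +0.10 ± 0.0269 (exact permutation p = 0.0161), so its level relative to the autosomes went from 0.569 on day 0 to 0.956 on day 7. In the 5 deep libraries alone the difference was +0.09 (exact permutation p = 0.075), not past 0.05. Leaving out the CpGs from +389 to +452 gave +0.05; they were picked because they had not fallen, so a smaller difference follows from that choice and is given as a description.

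**Figure D4:**
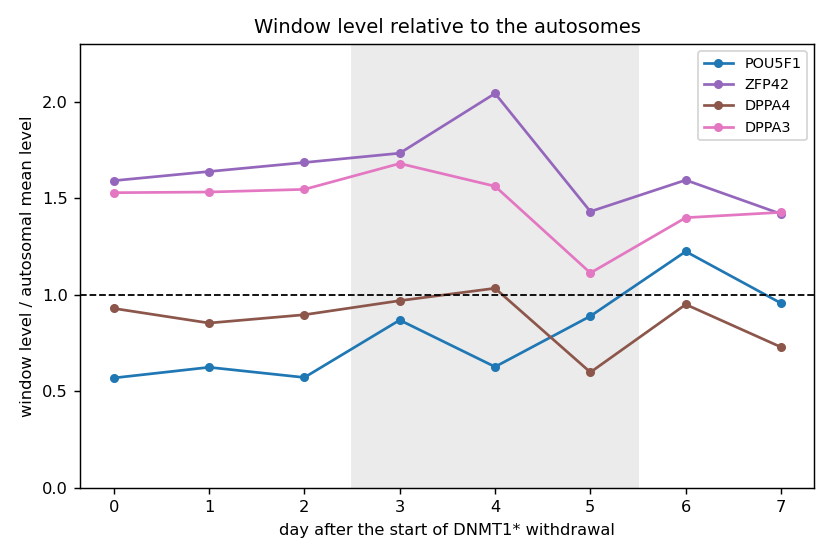
Mean window level divided by the autosomal mean level of the same library (y axis) by day (x axis) for the 4 windows at 20% or more on day 0, 1 library per day; the dashed line is equality and the grey band marks the shallow days 3 to 5. POU5F1 went from 0.569 to 0.956, while ZFP42, DPPA3 and DPPA4 ended at 1.42, 1.43 and 0.729 from 1.59, 1.53 and 0.930.

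Start and flank of the methylated genes were compared by the slope of the natural log of their ratio. The start zone of ZFP42 went from 88.9% to 15.1% and its flank from 82.7% to 18.6%; the start zone of DPPA3 went from 86.7% to 15.7% and its flank from 82.5% to 16.5%. Over all 8 libraries none of the log-ratio slopes passed (exact permutation p = 0.761 for ZFP42, 0.684 for DPPA3 and 0.987 for DPPA4). With CpGs of 10 or more reads and the 5 deep libraries alone, the start fell faster than the flank in ZFP42 (slope -0.03 per day, exact permutation p = 0.0333) and DPPA3 (-0.02, p = 0.00833, the smallest value that the 120 orders of 5 days can give), and DPPA4 gave +0.02 (p = 0.658). For DPPA3 (+0.0115 per day over all 8 libraries) and DPPA4 the sign of the slope differed between these settings. The p-values are unadjusted for the number of genes and settings.

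Of the 452 CpGs with 10 or more reads in each deep library, 108 started at 80% or more, 53 between 20% and 80% and 291 at 20% or less; the corresponding autosomal shares were 41.6%, 26.7% and 31.7%, against 23.9%, 11.7% and 64.4% here. The 108 high CpGs, of which 58 lay at ZFP42 and 30 at DPPA3, averaged 88.8% on day 0 and 16.8% on day 7, and all 108 were lower on day 7. Autosomal CpGs of that kind went from 88.9% to 18.7%, and about 1.03863e+06 of 1038645 were lower on day 7. The count for the genes is therefore near the background. The 53 intermediate CpGs kept 26.1% of their day 0 mean and the autosomal ones 20.6%; by gene this share was 43.4% in NANOG (1 CpG), 39.6% in LIN28A (7), 30.03% in SALL4 (3), 26.6% in PRDM14 (3), 26.4% in POU5F1 (7), 23.9% in DPPA4 (7), 22.4% in SOX2 (5), 21.1% in DPPA3 (11) and 21.0% in ZFP42 (9). Of the 291 low CpGs, 217 (74.6%) had no methylated read in any of the 5 deep libraries, against 68.8% of the autosomal low CpGs.

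Single CpGs varied around these means. In DPPA3 the CpG at +1342 kept the most on day 6 among those that started at 80% or more, and stood at 89.3% on day 0 (28 reads) and 40.9% on day 7 (22 reads). In ZFP42 the CpG chosen the same way, at -344, stood at 84.4% on day 0 and 9.09% on day 7 (33 reads), and the lowest on day 6, at -452, at 80% and 11.1%. In DPPA4 the CpG at +377, the nearest to the start, stood at 85.1% on day 0 and 18.8% on day 7 (32 reads). Another DPPA4 CpG, at +830, had 0 methylated of 10 reads on day 0, while its 3 neighbours from +823 to +839 had 19 of 24. Of the CpGs with 10 or more reads in each deep library, those nearest to the start in SOX2 (at -89), LIN28A (-153), SALL4 (+4) and PRDM14 (-303) had no methylated read on either day 0 or day 7, on 24 to 119 reads.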

How the data were processed

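RRBS of 8 libraries of HUES64, 1 per day, was analysed. Each deposited table lists CpGs with methylated and total read counts, and a score that is 1000 times the methylated share; the genome build is hg19 per the submitters' processing notes, with aligner and caller not given in the sources used here. Scores were not used. CpGs were joined by position, and gene starts were taken as given in hg19. No hg19 annotation was used, so exons and introns are not stated and no further pluripotency genes were counted.

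Levels, slopes and exact permutation tests were computed in Python 3.11.15 (numpy 2.4.6, scipy 1.17.1). The quasi-binomial trend was fitted in R 4.3.3 to windows with 3 or more CpGs read in all 8 libraries and 10 or more reads in each library, with dispersions moderated by limma 3.58.1 squeezeVar, a floor of 1 and an F test, called at adjusted p under 0.05; the gene windows entered the same table as all autosomal windows. It was also run on simulated data. The dispersions set there lay below those of the POU5F1 (4.16), ZFP42 (10.6), DPPA3 (6.45) and SALL4 (12.6) windows. That run therefore does not cover these windows. With 1 library per day, p-values measure only the trend over these 8 libraries. Genes with fewer than 10 such CpGs within 5 kb, or 3 within the start zone, got no trend. All 9 genes are named; single CpGs named by rule have 10 or more reads in each library of days 0, 1, 2, 6 and 7 and are the one nearest the start and, of those at 80% or more on days 0 and 1, the highest and lowest on day 6, and tiles those of largest and smallest change. Windows were set by position alone, but the genes and lists were chosen with earlier results of these data known.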

Additional observations from a re-analysis of the deposited data

How the results depend on the processing

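No paired analysis was possible because each day has 1 library and no replicate number is shared between groups that have more than 1. All 3 counts of called windows stayed within 1.5 times their value under every alternative run except that of start windows, which was 7 with 1 kb either side of the start. Leaving out 1 day gave 8 gene windows each time, 4 start windows each time and 20 to 23 tiles. With CpGs of 5 or more reads in every library the window slope was -1.42 for POU5F1 (4 CpGs, exact permutation p = 0.126), -0.101 for SOX2 (8 CpGs, p = 0.424) and +0.110 for SALL4 (25 CpGs, p = 0.544), and with pooled reads it was -0.166 for SALL4; the cause was not tested. In the 5 deep libraries alone, over CpGs of 10 or more reads, the slope was -3.58 for POU5F1, -0.290 for SOX2 and -0.524 for SALL4 (exact permutation p = 0.0167, 0.00833 and 0.0167). SALL4 slopes without 1 day ranged from -0.467 to -0.299. Relative to the autosomes, the deep libraries gave 0.0934 for POU5F1 (range without 1 day 0.0760 to 0.111), 0.00257 for DPPA4 and 0.00229 for DPPA3, and 0.0475 was the POU5F1 value without its 4 CpGs, an alternative chosen after seeing the data that lowers the value by construction. Start against flank changed to 0.0787 (500 bp start) and 0.0188 (deep libraries) for DPPA4, -0.0238 for DPPA3 and -0.0300 for ZFP42. Of the slopes under the other settings, 30 kept direction and call, 6 reversed direction, 5 lost the call and 1 gained it. With 1 day left out, 89 kept direction and call and 7 lost the call. Within the counts, SALL4 was not called with limma on arcsine square-root levels or with 2 kb either side (7 gene windows each), and that limma fit called 6 start windows, LIN28A among them as rising. Days 3 to 5, at a median of 4 reads per CpG, limit what single sites can show.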
